A study of Mus musculus with 6 samples.

Results

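*Mkks*, *Pnrc2*, *Pcgf3* and *Tsc22d4* are 4 mouse genes whose 5′UTRs carried more ribosome footprints for their length than their coding sequences (CDS) in cultured squamous cell carcinoma cells (SCCc). They were chosen by the measured footprint density on the 5′UTR over that on the CDS, and they are 4 of the 23698 gene rows of the series. SCCc are keratinocytes from the back skin of newborn mice (P0) of the genotype *Hras*G12V; *Tgfbr2* fl/fl KO, an established line used at passages 10 to 15. The libraries were 1 ribosome profiling library, a readout of the stretches of mRNA that ribosomes shield from digestion, and 2 RNA-seq libraries, which measure the mRNAs themselves. Exon counts came to 3549555 for ribosome profiling and, for RNA-seq, to 10707930 (replicate 1) and 14003713 (replicate 2). All libraries come from 1 condition and the footprints from 1 library, so the values below are descriptions of SCCc without a test, and the 95% intervals cover counting error only, leaving out PCR duplication and differences between cultures. Of the 8 keratinocyte markers examined, all 8 had an RPKM (counts per kilobase of counted length, scaled to the exon counts of the library) above 1 in RNA-seq replicate 1, with a summed RPKM of 14822 and 17012 in replicates 1 and 2 and *Krt5* as the most abundant. Of 4 suprabasal keratinocyte markers, 3 were above 1 RPKM, with sums of 118 and 120 RPKM, and *Lor* was not (0.105 and 0.0803 RPKM). Of 6 fibroblast markers, 4 were above 1 RPKM in RNA-seq replicate 1. The 6 markers summed to 9.93 and 15.5 RPKM, led by *Col3a1*, and had 0 footprints on the CDS apart from *Pdgfra*, with 10. The 4 melanocyte markers summed to 5.38 and 5.47 RPKM, nearly all of it *Pmel* (5.03 and 5.19). The 4 immune markers summed to 1.09 and 3.62 RPKM and the 3 endothelial markers to 0.505 and 0.591 RPKM, with 13 footprints on the CDS of *Kdr*. In bulk cultures, fewer cells of a type and less RNA per cell cannot be told apart.

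Ribosomes load at the cap of an mRNA and scan the 5′UTR for a start codon. Where they meet an ATG before the main one they can translate an upstream open reading frame, and the ribosomes that do so are caught as footprints on the 5′UTR while the CDS behind it often receives fewer. Such frames are known in stress-response and growth genes of many cell types, and some encode short proteins of their own.

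The sequences that bear on these 5′UTRs are the ATGs that lie ahead of the CDS. In GENCODE M21, which uses GRCm38, *Mkks* (chr2:136873780-136891389) and *Pnrc2* (chr4:135870918-135873850) are on the - strand, and *Pcgf3* (chr5:108461232-108506976) and *Tsc22d4* (chr5:137745730-137768450) on the + strand. The principal coding transcripts Mkks-202, Pnrc2-201, Pcgf3-201 and Tsc22d4-202 carry 18, 2, 4 and 5 ATGs on 5′UTRs of 979, 400, 410 and 687 nt. Shown for each gene are the ATGs of the 2 longest frames with separate stop codons within the 5′UTR, where there are as many, of any frame that runs into the CDS, and of the CDS itself, with 6 bases before the ATG, the ATG in capitals and 4 bases after it, 5′ to 3′ on the strand of the gene.
Mkks frame of 59 codons: cagactATGagct
Mkks frame of 50 codons: gaagaaATGaaaa
Mkks frame of 18 codons into the CDS: agccatATGaaca
Mkks CDS: agcaggATGtctc
Pnrc2 frame of 56 codons: gactcgATGtgga
Pnrc2 CDS: ctgaagATGggtg
Pcgf3 frame of 22 codons: ctgcgcATGctcc
Pcgf3 frame of 29 codons: cagaaaATGgaaa
Pcgf3 frame of 18 codons into the CDS: gcctccATGccac
Pcgf3 CDS: ccaaagATGttga
Tsc22d4 frame of 16 codons: accgagATGcctc
Tsc22d4 frame of 23 codons: cctgccATGtcgg
Tsc22d4 frame of 34 codons into the CDS: gccccgATGtccc
Tsc22d4 CDS: gggaccATGagtg
These stretches lie, in the order of *Mkks*, at chr2:136885673-136885685, chr2:136881591-136881603, chr2:136881273-136881285 and chr2:136881229-136881241, and for *Pnrc2* at chr4:135873055-135873067 and chr4:135872430-135872442. The *Pcgf3* stretches lie at chr5:108461264-108461276, chr5:108472109-108472386, chr5:108472471-108472483 and chr5:108473792-108473804, the one ahead of the 29-codon frame being split by an intron. Those of *Tsc22d4* lie at chr5:137746231-137746243, chr5:137746978-137746990, chr5:137747009-137747021 and chr5:137747110-137747122. A start codon in a favourable context has a purine at position -3 and a G at position 4, counted from the A of the ATG. Of the ATGs shown, those of the 29-codon frame of *Pcgf3* and of the CDS of *Pnrc2* have both, as does 1 ATG of *Mkks* that is not shown, inside the 59-codon frame, while the other CDS starts have the purine alone and the upstream ATG of *Pnrc2* has neither.

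The upstream frames of *Mkks* and *Pnrc2* include 3 that GENCODE M21 also annotates as coding. In *Mkks*, the frame of 59 codons is the CDS of the overlapping gene AL731706.2, from 136885503 to 136885679, and the frame of 50 codons is the CDS of the overlapping gene AL731706.1, from 136881448 to 136881597. In *Pnrc2*, the frame of 56 codons is the whole CDS of the transcript Pnrc2-203, and its stop codon ends 14 nt before the CDS of Pnrc2-201. No upstream frame of *Pcgf3* or *Tsc22d4* started at an annotated CDS start. In both of these genes and in *Mkks*, 1 upstream frame runs into the CDS, sharing 13 nt with it in *Mkks*, 7 nt in *Pcgf3* and 4 nt in *Tsc22d4*, where the stop codon of the 34-codon frame overlaps the ATG of the CDS. The 5′UTR of *Mkks* has further annotation on it. Of its 979 nt, 944 lie in exons of AL731706.1 and 180 in exons of AL731706.2, both on the same strand, so counts on this 5′UTR cannot be told apart between these transcripts and that of *Mkks*. The processed transcript Mkks-203 covers 744 of its 979 nt but 17 nt of the CDS, and 172 nt lie in exons of *Slx4ip* on the opposite strand. *Slx4ip* had 26.5 footprints over all its exons. Whether the counting used the strand is not given in the sources used here.

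**Figure D1:**
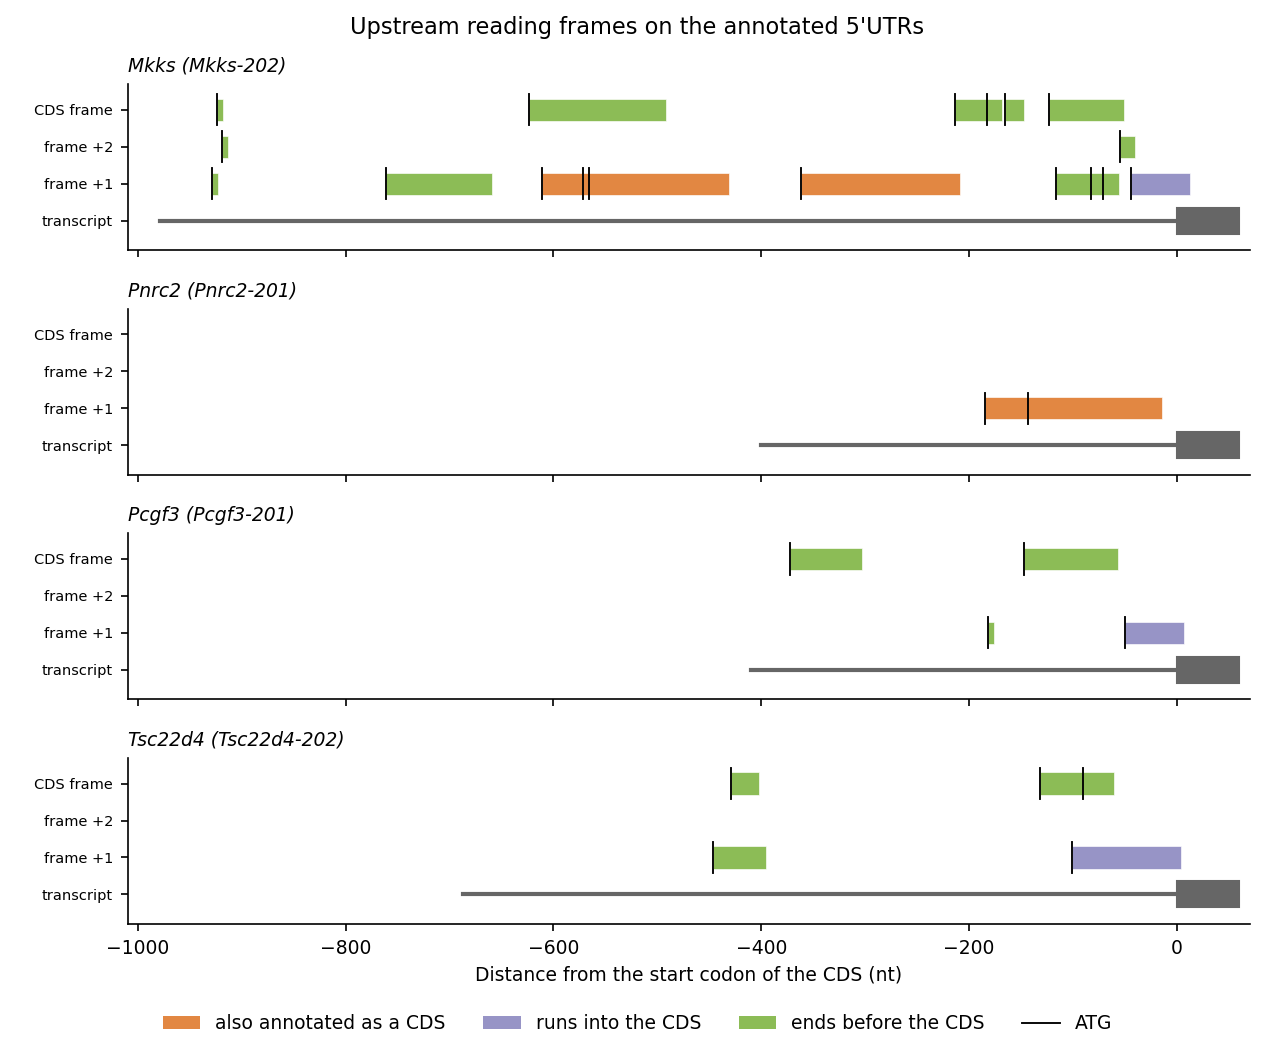
Upstream reading frames on the annotated 5′UTR of each gene, by distance in nt from the start codon of the CDS (grey box, cut at 60 nt). Black ticks are ATGs, bars run from the first ATG of a frame to its stop codon, and rows give the frame relative to the CDS; *Mkks* has 18 ATGs, and 2 of its frames and the single frame of *Pnrc2* are also annotated as a CDS (orange).

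*Mkks* encodes a chaperonin-like protein that acts in the assembly of the BBSome, a complex of primary cilia mutated in Bardet-Biedl syndrome. On its 996 counted nt of 5′UTR it had 121 footprints, and 381 and 413 RNA-seq counts in replicates 1 and 2. On 1516 counted nt of CDS it had 10.9 footprints, and 146 and 181 RNA-seq counts. Footprint density was therefore 34.2 RPKM on the 5′UTR and 2.03 RPKM on the CDS, while RNA-seq density was 35.7 and 29.6 RPKM on the 5′UTR and 9.02 and 8.54 RPKM on the CDS. The 5′UTR was the denser region in every library of *Mkks*, RNA-seq included. The footprint ratio of 5′UTR over CDS was 16.8-fold, or 4.07 on the log2 scale (exact Clopper-Pearson 95% interval 3.18 to 5.11), and the RNA-seq ratio was 3.96-fold in replicate 1 and 3.47-fold in replicate 2. Against the footprint density of all exons, which includes the 5′UTR, in place of that of the CDS, the log2 footprint ratio of *Mkks* was 1.54.

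*Pnrc2* encodes a small nuclear receptor coactivator that also binds the decapping enzyme and takes part in mRNA decay. Its 396 counted nt of 5′UTR held 128 footprints, and 285 and 341 RNA-seq counts, and the 420 counted nt of its CDS held 15.5 footprints, and 291 and 354 RNA-seq counts. In density, footprints were at 91.1 RPKM on the 5′UTR and 10.4 RPKM on the CDS, against 67.3 and 61.6 RPKM of RNA-seq on the 5′UTR and 64.7 and 60.2 RPKM on the CDS. RNA-seq density was thus level across both regions in each replicate, and only the footprints differed. The log2 footprint ratio was 3.13 (2.33 to 3.93), and the log2 RNA-seq ratio was 0.06 in replicate 1 and 0.03 in replicate 2.

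*Pcgf3* encodes a RING finger protein of a variant Polycomb repressive complex 1. It had 31.6 footprints on 310 counted nt of 5′UTR and 11 on the 723 counted nt of its CDS, both just above the minimums used for the background below. The counted 5′UTR is shorter than the 410 nt of Pcgf3-201 on which the upstream frames were read, so part of that 5′UTR was not counted. RNA-seq counts were 53.9 and 82.5 on the 5′UTR, and 287 and 384 on the CDS. Footprint density was 28.7 RPKM on the 5′UTR and 4.29 RPKM on the CDS, and RNA-seq density ran the other way, with 16.2 and 19.0 RPKM on the 5′UTR and 37.0 and 38.0 RPKM on the CDS. *Pcgf3* was the single gene of the 4 whose 5′UTR carried fewer RNA-seq reads per nt than its CDS in both replicates. Its log2 footprint ratio was 2.74 (1.74 to 3.90) and its log2 RNA-seq ratio -1.19 in replicate 1 and -0.999 in replicate 2.

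*Tsc22d4* encodes a leucine zipper protein of the TSC22 domain family. On 700 counted nt of 5′UTR it had 67.4 footprints, and 215 and 313 RNA-seq counts. On 1734 counted nt of CDS, which exceed the 1161 nt of Tsc22d4-202, it had 31.1 footprints, and 403 and 723 RNA-seq counts. The coding transcripts Tsc22d4-201, Tsc22d4-204, Tsc22d4-205 and Tsc22d4-209 contain 0 nt of the 687-nt 5′UTR of Tsc22d4-202. Counts on the CDS can therefore come from mRNAs without this 5′UTR. Footprint density was 27.1 RPKM on the 5′UTR and 5.05 RPKM on the CDS, and RNA-seq density was 28.7 and 31.9 RPKM on the 5′UTR and 21.7 and 29.8 RPKM on the CDS. The RNA-seq replicates of *Tsc22d4* lay further apart on the CDS than on the 5′UTR, so that its log2 RNA-seq ratio was 0.40 (0.16 to 0.64) in replicate 1 and 0.10 (-0.10 to 0.29) in replicate 2. The log2 footprint ratio was 2.42 (1.79 to 3.08).

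**Figure D2:**
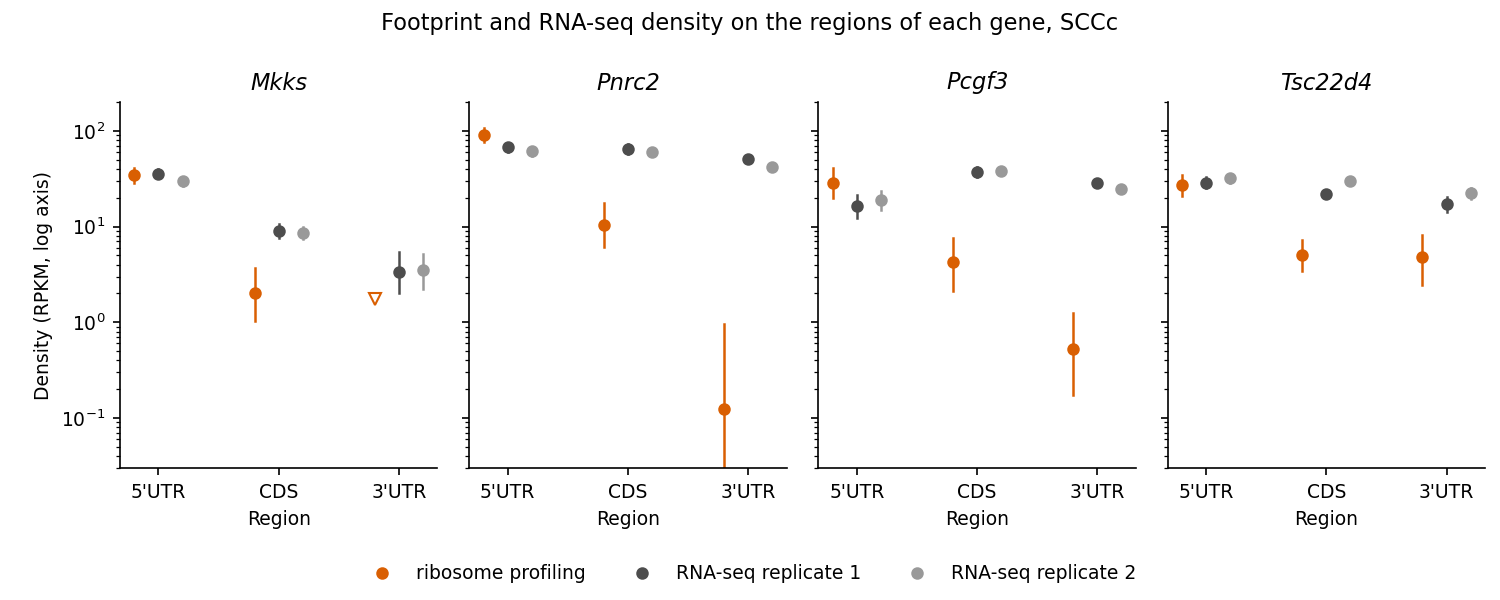
Density in RPKM (log axis) of footprints and of RNA-seq reads in replicates 1 and 2 on the 5′UTR, CDS and 3′UTR of each gene; lines are exact Poisson 95% intervals, cut at the lower edge of the axis. The open triangle marks the density that 3 counts would give where *Mkks* had 0 footprints on the 3′UTR. Footprint density falls from 91.1 RPKM on the 5′UTR of *Pnrc2* to 10.4 RPKM on its CDS, while its RNA-seq density is level.

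Expressed as a share of all exon footprints of the gene, the 5′UTR held 90.9% in *Mkks* (Clopper-Pearson 95% interval 84.8% to 95.3%), 88.9% in *Pnrc2* (82.6% to 93.5%), 66.4% in *Pcgf3* (51.6% to 79.6%) and 60.9% in *Tsc22d4* (50.6% to 69.5%). The 5′UTR made up 31.2%, 20.8%, 8.40% and 22.2% of their counted exon length. The share of RNA-seq reads on the 5′UTR was above this length share by a few percent of the reads in *Pnrc2*, at 24.5% and 25.4%, and in *Tsc22d4*, at 28.7% and 24.8%. It was below it in *Pcgf3*, at 4.65% and 5.96%, and far above it in *Mkks*, at 67.7% and 64.0%. Over all genes, the 5′UTR held 4.50% of exon footprints and 3.48% and 4.03% of exon RNA-seq counts.

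The background was formed by 1046 genes whose 5′UTR had 60 nt or more counted, 30 or more footprints and 10 or more RNA-seq counts over both replicates, and whose CDS had 10 or more footprints. The 5′UTR exceeded the CDS in footprint density in 260 of them (24.9%), among which are all 4 members by choice, and did so at least 4-fold in 14 (1.34%). The members hold ranks 1 to 4 of this order, with *Tsc22d4* (2.42) as the last inside it and *Hras* (2.39) as the next gene outside, followed by *Zdhhc3* (2.25). The intervals of *Pnrc2*, *Pcgf3*, *Tsc22d4* and *Hras* overlap, so their order is not resolved at this depth, and that of *Mkks* overlaps those of *Pnrc2* and *Pcgf3*. The minimum on the CDS also sets who is listed. With it lowered to any count above 0, 4 further genes entered, named here after their values were seen, and 3 of them lay above *Tsc22d4*, the joined row of *Il4i1* and *Nup62-il4i1* (9.59 from 0.5 footprints on the CDS), *Slc35a4* (3.78 from 5.17) and *2210013O21Rik* (2.97 from 1), while *Josd1* did not (1.24). *Mkks* was then at rank 2, *Pnrc2* at rank 4, *Pcgf3* at rank 6 and *Tsc22d4* at rank 7. Without the minimums on counts of the 5′UTR, they were at ranks 1, 4, 12 and 30 of 7673 genes, and with any count above 0 on both regions at ranks 19, 48, 79 and 126 of 9130.

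RNA-seq density on the same regions was not used in the choice but is not independent of it. The footprint ratio is the RNA-seq ratio times the footprint ratio relative to RNA-seq, so the choice can favour a high RNA-seq ratio. The 5′UTR exceeded the CDS by this measure in both replicates in 3 of the 4 genes, *Mkks*, *Tsc22d4* and *Pnrc2*, against 10.3% of the background (108 of 1046). In *Pnrc2* the excess is within counting error, with intervals of -0.19 to 0.30 and -0.19 to 0.25, as it is in replicate 2 of *Tsc22d4*. Of the 14 genes with a footprint ratio of at least 4-fold, which include the 4 members, 9 (64.3%) had lower RNA-seq density on the 5′UTR in both replicates. *Mkks* was at rank 11 of 1046 by the mean log2 RNA-seq ratio (1.89), *Tsc22d4* at rank 76 (0.25), *Pnrc2* at rank 121 (0.04) and *Pcgf3* at rank 459 (-1.09), with a background median of -1.33. The footprint ratio exceeded the RNA-seq ratio in both replicates in all 4 genes, as it did in 55.1% of the background (576 of 1046), but this excess and its size carry the footprint ratio by which the genes were chosen, so a high value is in large part given by the choice. Taken relative to RNA-seq, the footprint ratio was 14.3-fold in *Pcgf3*, 8.48-fold in *Pnrc2*, 4.54-fold in *Mkks* and 4.51-fold in *Tsc22d4*. On the log2 scale these are 3.84, 3.08, 2.18 and 2.17, where the replicates gave 3.93 and 3.74 for *Pcgf3*, 3.07 and 3.10 for *Pnrc2*, 2.09 and 2.28 for *Mkks* and 2.02 and 2.32 for *Tsc22d4*. By these values the order of the genes turned, with *Mkks* moving from the top to the same level as *Tsc22d4*. Both replicates were set against the same footprint library, so their closeness leaves out the counting error of the footprints. The order by the ratio relative to RNA-seq is therefore not resolved at this depth either. On this scale the members stood at ranks 68, 108, 196 and 199 of 1046 and were no longer the highest. *Hras* was at rank 6 (5.97), with a log2 RNA-seq ratio of -3.84 in replicate 1 and -3.33 in replicate 2.

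**Figure D3:**
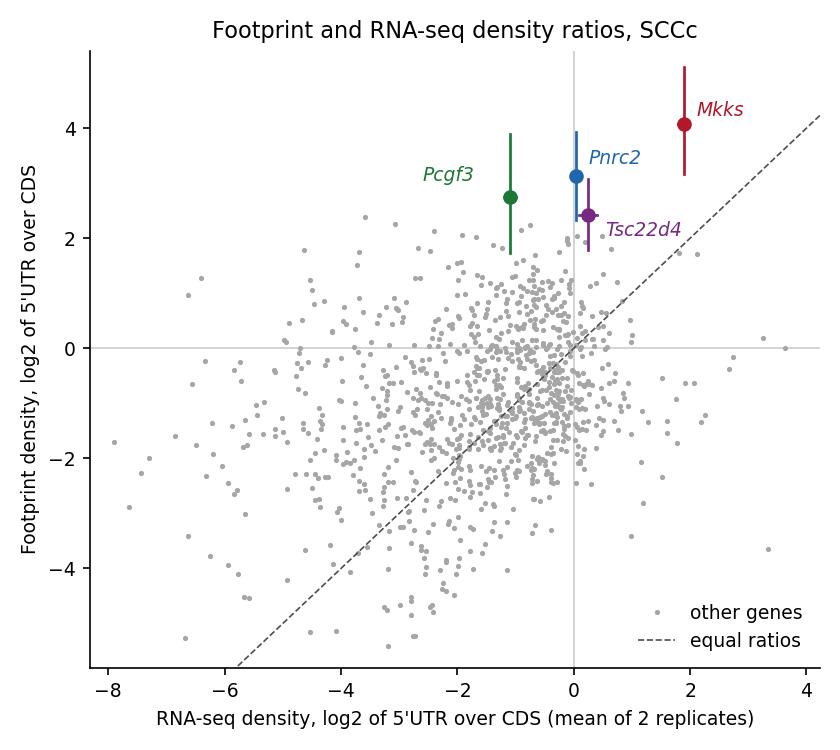
Log2 ratio of 5′UTR over CDS in footprint density (y axis) and in RNA-seq density (x axis, mean of both replicates) for the 1046 background genes. Vertical lines of the named genes are Clopper-Pearson 95% intervals, horizontal lines span the RNA-seq replicates, and the dashed line marks equal ratios; *Mkks* lies at 4.07 and 1.89 and *Pcgf3* at 2.74 and -1.09.

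Translational efficiency of the CDS was taken as footprint density of the CDS divided by RNA-seq density of all exons (mean of the replicates), on the log2 scale and relative to the median of the 9862 genes that passed the thresholds of the study, applied here to the libraries of SCCc alone. The value was -3.27 for *Mkks* (-3.35 and -3.18 against RNA-seq replicates 1 and 2), -3.05 for *Pcgf3* (-3.11 and -2.997), -2.71 for *Pnrc2* (-2.79 and -2.63) and -2.67 for *Tsc22d4* (-2.47 and -2.85). All 4 genes lay below -2, against 7.09% of the passing genes (699 of 9862). These low values share the few footprints on the CDS with the ratio by which the genes were chosen, and nothing is read from them on their own. Their counting intervals, from the footprints on the CDS, ran from -4.27 to -2.43 in *Mkks*, -4.05 to -2.21 in *Pcgf3*, -3.52 to -2.01 in *Pnrc2* and -3.23 to -2.16 in *Tsc22d4*, and overlap throughout. With RNA-seq density taken on the CDS in place of exons, *Mkks* was at -2.16 and *Pcgf3*, at -3.18, became the lowest. Without centring, *Pnrc2* and *Tsc22d4* were above -2 with edgeR TMM factors and with DESeq2 size factors, which put the median of all genes at 0.76 and 0.97.

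On the 5′UTR, the same quantity, footprint density over RNA-seq density on that region and relative to the same median, was -0.28 in *Mkks*, 0.16 in *Pnrc2*, 0.36 in *Pcgf3* and -0.50 in *Tsc22d4*. The 4 genes thus lay within 1 log2 unit of the median CDS of the passing genes. Against the other 5′UTRs they were unremarkable, at ranks 775, 653, 588 and 837 of 1046 with a background median of 0.61, in a background that itself requires 30 footprints on the 5′UTR. By efficiency of the CDS they stood at ranks 1042, 1037, 1040 and 1035 of 1046, which the choice favours, since a sparse CDS raises the ratio by which they were chosen. Their CDS held 10.9 to 31.1 footprints, where the background median was 452. Of the 260 genes with higher footprint density on the 5′UTR, 33 (12.7%) had a CDS efficiency below -2, against 38 (3.63%) of the 1046. The footprint density of the CDS enters both measures, and the 1046 include the 260. Nothing is read from this difference on its own.

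**Figure D4:**
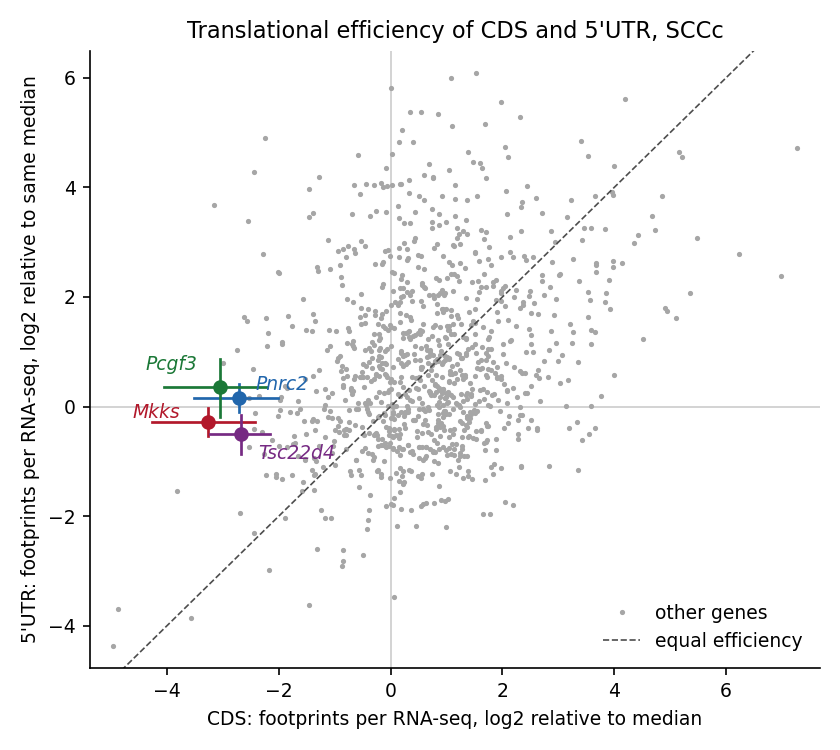
Translational efficiency of the CDS (x axis) and of the 5′UTR (y axis) for the 1046 background genes, both on the log2 scale relative to the median CDS efficiency of the passing genes. Lines of the named genes are exact Poisson 95% intervals of their footprints; they lie between -3.27 and -2.67 on the x axis and between -0.50 and 0.36 on the y axis.

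The number of footprints on the 3′UTR, which the choice did not use, differed between the genes. *Mkks* had 0 footprints on 488 counted nt of 3′UTR, which allows up to 2.74% of its exon footprints (upper end of the Clopper-Pearson 95% interval), and *Pnrc2* had 0.484 on 1091 nt. *Pcgf3* had 5 footprints on 2658 nt, or 10.5% of its exon footprints (3.47% to 22.7%), and *Tsc22d4* had 12.2 on 716 nt, or 11.0% (5.71% to 18.1%), where the background median was 1.22%. The CDS is part of the exon footprints, so a gene chosen for few footprints on it has a higher share on the 3′UTR for that reason alone. In *Tsc22d4* the footprint density on the 3′UTR, 4.79 RPKM, was close to the 5.05 RPKM on its CDS, and the log2 ratio of -0.08 was at rank 3 of the 994 genes with a value, a ratio that also carries the low CDS count. Relative to RNA-seq on the 3′UTR, at 17.1 and 22.3 RPKM in replicates 1 and 2, *Tsc22d4* was at -2.38 on the efficiency scale, rank 154 of 966, and *Pcgf3* was at -6.00, rank 761, with a background median of -4.71 over genes with a footprint on the 3′UTR, which leaves out *Mkks*. The 3′UTR of *Tsc22d4* therefore held more footprints for its RNA than most and that of *Pcgf3* fewer. *Pnrc2* was at -8.88, rank 952, from 0.484 footprints. The upper end of the 95% interval of its footprint density there was 0.953 RPKM, against 50.5 and 42.4 RPKM of RNA-seq. The 3′UTR of *Pnrc2* was thus also on the low side, while its exact rank is not resolved by so few footprints.

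Upstream ATGs were counted in the same way for the 1020 background genes that matched a coding transcript of GENCODE M21 by name, a count chosen after the data were seen. *Mkks*, with 18 ATGs, was among 7 genes with at least as many, *Tsc22d4*, with 5, among 112, *Pcgf3*, with 4, among 159, and *Pnrc2*, with 2, among 393. Per kb of annotated 5′UTR, *Mkks* was among 20, *Pcgf3* among 144, *Tsc22d4* among 257 and *Pnrc2* among 393. By the longest frame that ends within the 5′UTR, *Mkks* (59 codons) and *Pnrc2* (56 codons) were longer than 94.5% and 93.5% of the genes, *Pcgf3* (29 codons) than 79.7% and *Tsc22d4* (23 codons) than 73.7%. A frame that runs into the CDS was present in *Mkks*, *Pcgf3* and *Tsc22d4* and in 14.0% of the 1020 genes. Among the genes with higher footprint density on the 5′UTR, 221 of 248 (89.1%) had an upstream ATG, against 399 of 772 (51.7%) of those with higher density on the CDS. The share of genes with higher footprint density on the 5′UTR was 6.75% without an upstream ATG, 26.4% with 1, 39.5% with 2 to 4 and 44.6% with 5 or more, and the median CDS efficiency in these classes was 0.96, 0.62, 0.26 and -0.24. The median annotated 5′UTR was 323.5 nt in genes with higher footprint density on the 5′UTR and 272.5 nt in the others. The median number of upstream ATGs per kb was 6.64 and 1.93. The part of 5′UTR length in these shares was not tested. *Pnrc2* and *Pcgf3* belong to the class of 2 to 4 and *Mkks* and *Tsc22d4* to that of 5 or more, where they are the 2 highest genes of each class, as their ranks require. The counts are sums over a region, so the position of a footprint within the 5′UTR, and the frame it belongs to, cannot be read from them.

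**Figure D5:**
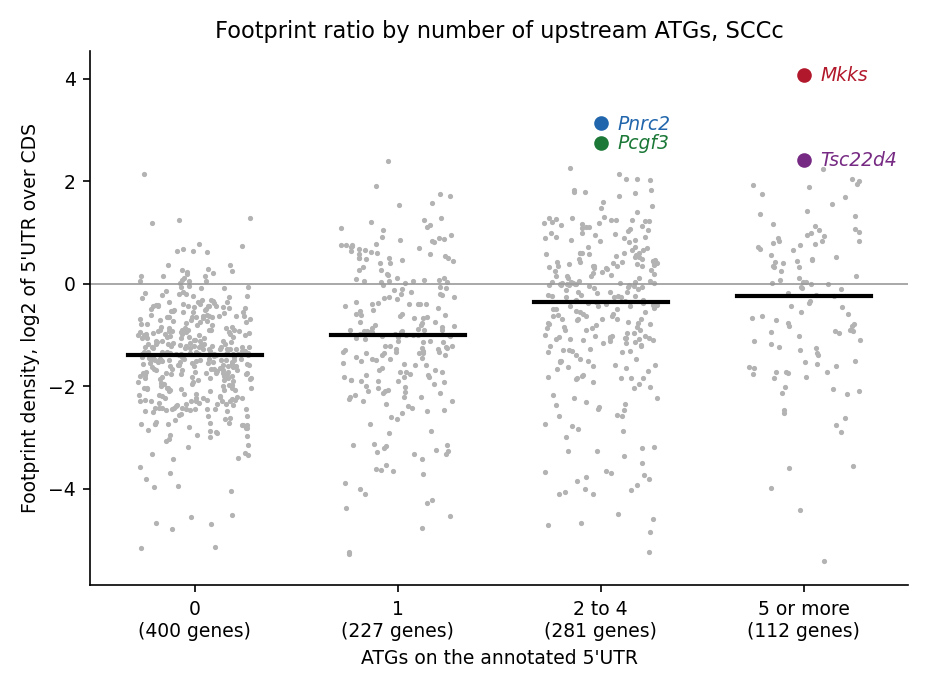
Log2 footprint density ratio of 5′UTR over CDS by the number of ATGs on the annotated 5′UTR, for the 1020 background genes with an annotated transcript; points are genes and black lines are class medians. The medians are -1.38, -0.99, -0.34 and -0.23 for 0, 1, 2 to 4 and 5 or more ATGs.

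Likeness to other genes was measured as the Euclidean distance over 4 values (the log2 footprint ratio, the log2 RNA-seq ratio in each replicate and the CDS efficiency), each divided by its SD, among the 956 background genes with at least 10 RNA-seq counts on both regions in each replicate. The footprint ratio chose the members and the CDS efficiency shares its low CDS count, so the choice itself draws the members together in these distances. *Pnrc2* and *Tsc22d4* were at a distance of 0.554 from each other, and the closest gene outside the 4 was *Zfp672* for both, at 0.906 from *Pnrc2* and 0.457 from *Tsc22d4*, followed by *Extl3*, at 0.949 and 0.665. *Pcgf3* was closest to *Fam53a* (0.633), *Trpm7* (0.928) and *Map3k11* (0.969). *Mkks* had no close neighbour, and its nearest genes were *Pnrc2* (1.99), *Ftl1*, the ferritin light chain (2.03), and *Tsc22d4* (2.06). *Ftl1* shared with *Mkks* a high log2 RNA-seq ratio, 1.82 and 1.79 in replicates 1 and 2 against 1.99 and 1.80 in *Mkks*, and had a log2 footprint ratio of 1.72. The CDS efficiency of *Ftl1* was lower, at -4.97 against -3.27 in *Mkks*.

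The partners of each gene were compared on the 7673 genes with at least 60 nt of 5′UTR and 10 footprints on the CDS, of which 17.3% had higher footprint density on the 5′UTR and whose median log2 footprint ratio was -1.396, with the 588 genes without a footprint on the 5′UTR taken as lowest here and in the lists below. Besides *Mkks*, 6 genes of the Bardet-Biedl chaperonin and BBSome list were measured, with a median of -1.71, and 1 was above 0, *Bbs7* (0.83, from 1.99 footprints on the 5′UTR), ahead of *Bbs9* (-0.89) and with *Ttc8*, without a footprint on its 5′UTR, and *Bbip1* (-2.23) lowest. Besides *Pnrc2*, 8 genes of mRNA decapping and decay had a median of -1.18, and 1 was above 0, the helicase *Ddx6* (0.54), ahead of *Upf1* (-0.71), while *Xrn1* (-2.11) and *Pnrc1* (-1.34), the paralog of *Pnrc2*, were lowest. Besides *Pcgf3*, 14 genes of Polycomb repressive complex 1 had a median of -1.28, and 2 were above 0, *Fbrsl1* (2.57, from 14 footprints on the 5′UTR and 11 on the CDS) and *Ring1* (0.16), with *Auts2*, without a footprint on its 5′UTR, and *Pcgf2* (-4.31) lowest. Besides *Tsc22d4*, 6 genes of the TSC22 family and its NRBP and WNK partners had a median of -0.66, and 2 were above 0, *Tsc22d1* (0.51) and the kinase *Wnk1* (0.43), with *Oxsr1* (-2.23) and *Stk39* (-1.99) lowest. The CDS efficiency of the partners had medians of -0.06, 0.04, -0.14 and -0.33 in this order, and 2 partners were below -2, *Fbrsl1* (-2.68), which is at the level of *Pnrc2* and *Tsc22d4*, and *Auts2* (-2.03). Of 18 measured genes known for translated upstream reading frames, 12 had a ratio above 0, with a median of 0.53, led by *Ppp1r15a* (2.65, from 9 footprints on the 5′UTR and 10 on the CDS) and *Tmem183a* (1.91) and with *Cebpb* (-3.54) and *Mdm2* (-3.06) lowest. *Ppp1r15a* was above *Tsc22d4*, and *Slc35a4* (3.78) and *Ddit3* (3.07), which are on this list but had fewer than 10 footprints on the CDS, were above *Pcgf3*. The CDS efficiency of the 20 genes of that list with a value had a median of -0.58, and 4 of them, named here after their values were seen, were within the range of *Mkks*, *Pnrc2*, *Pcgf3* and *Tsc22d4* or below it, *Asnsd1* (-3.82), *Ppp1r15a* (-3.35), *Slc35a4* (-3.296) and *Ddit3* (-3.12).

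The genes modified in SCCc were examined as well. *Tgfbr2*, at 61.4 and 59.0 RPKM in RNA-seq replicates 1 and 2, had 193 footprints on its CDS and a log2 footprint ratio of -0.18, and counts over a whole gene do not show whether deleted exons are absent. *Hras*, the gene next in the order after *Tsc22d4*, had 245 footprints on 206 nt of 5′UTR and 128 on 564 nt of CDS, and its CDS efficiency of 0.02 was at the median of all genes, unlike that of *Mkks*, *Pnrc2*, *Pcgf3* and *Tsc22d4*.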

How the data were processed

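Ribosome profiling and RNA-seq libraries of SCCc were analysed here; the 3 long-read libraries were not analysed here. According to the submitters' processing notes and the methods of the study, the authors trimmed reads with Trim Galore, filtered footprints against rRNA, mitochondrial and tRNA sequences with Bowtie2 2.4.1, aligned to GRCm38 with STAR 2.6.1 and counted regions with Plastid. The labels describe cycloheximide for skin samples; its use for this ribosome profiling library of cultured cells and the annotation release used for counting are not given in the sources used here. The deposited values are estimated counts that need not be whole, with the counted length of each region in nt, and the deposited RPKM rests on library totals above the sum of the counts. Read back from the deposited RPKM, these totals were 202893242 for ribosome profiling, against 3549555 exon counts, and 50733402 and 65593171 for RNA-seq replicates 1 and 2. RPKM was recalculated per region with the exon counts as library total, in Python 3.11.15, numpy 2.4.6, pandas 2.3.3 and scipy 1.17.1. Counts were rounded for intervals, and to 9 decimals on reading, because a sum of read shares can fall just short of a whole number. The study's thresholds, applied to these libraries alone (RPKM above 1 in both RNA-seq libraries, base mean above 25) used DESeq2 1.42.0 size factors on rounded counts, and TMM factors came from edgeR 4.0.16. The test of the study needs both conditions and was not run. No pseudocount was used. Upstream frames were read from GENCODE M21 transcripts, taking the principal transcript, then one with a consensus CDS, then the longest 5′UTR. Named genes were the 4 members, the 3 nearest genes of each, the 5 highest ratios and the members' neighbours in that order, the 2 highest and 2 lowest of each list, genes said to be named after their values were seen, and the modified genes. The members and lists were chosen with earlier results of these data known. The calculation was tested on simulated counts. Figures were drawn with matplotlib 3.10.9.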

Additional observations from a re-analysis of the deposited data

Results flagged for a closer look

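*Mkks* had RNA-seq counts on exon positions that were assigned to none of its 5′UTR, CDS and 3′UTR, 17.4 in replicate 1 and 27.4 in replicate 2, above the 3 counts that a count of 0 allows. These 194 nt were left out of every region value of *Mkks*, which is flagged because they hold signal outside the regions compared, and 1.22 footprints lay on them. The counted CDS of 1516 nt is shorter by the same 194 nt than the 1710 nt annotated in GENCODE M21.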

How the results depend on the processing

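No result changed direction under the alternatives run. For the median of the 4 genes, the log2 footprint ratio (2.94) was 1.82 with exon density in place of CDS density, and between 1.82 and 2.86 over all its settings. Exon density includes the 5′UTR itself, and with it *Pcgf3* (2.98) was highest, ahead of *Pnrc2* (2.10), *Mkks* (1.54, from 4.07) and *Tsc22d4* (1.45). With counts not divided by length, *Pcgf3* was at 1.52 (from 2.74) and *Tsc22d4* at 1.12 (from 2.42). *Mkks* (3.47) and *Pnrc2* (3.04) stayed within their intervals under that setting. With 1 count added to each region, the log2 footprint ratio of 3′UTR over CDS of *Pnrc2* was -4.85 in place of -6.38. The log2 RNA-seq ratio (0.15) lay between 0.07 and 0.23 with each RNA-seq replicate left out, the ratio relative to RNA-seq (2.63) between 2.58 and 2.71, and the CDS efficiency (-2.88) between -2.95 and -2.92. The CDS efficiency was -2.51 with RNA-seq density on the CDS, -2.66 with a pseudocount of 1 RPKM, -2.12 with edgeR TMM factors and -1.91 with DESeq2 size factors, both without centring, and -3.27 when centred on genes that reach 100 counts in each of the libraries. The share of genes with higher footprint density on the 5′UTR (24.9%) was 17.1% with at least 100 footprints on both regions, a set that holds none of the 4 genes, 30.1% with a 5′UTR of at least 200 nt, 21.9% with any count above 0 on both regions, 7.65% when higher meant a log2 ratio above 1 and 17.3% without a minimum on the 5′UTR, the last chosen after the data were seen. For these moves the cause was not tested, apart from the scalings and the other centring. The scalings shift all genes by 0.76 and 0.97, and centring on genes that reach 100 counts in each of the libraries shifts them by -0.39. Of 73 further values of single genes and shares, 48 stayed within their spread or interval and 25 moved beyond it. On the transcript with the longest 5′UTR, a setting chosen after the data were seen, an upstream ATG was present in 92.3% of the genes with the denser 5′UTR, a share that did not move, and in 56.1% of the others, a share that did. No paired analysis was possible because all libraries belong to 1 condition and no test was run. The footprint values rest on low counts, 10.9 on the CDS of *Mkks* and 11 on that of *Pcgf3*.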
